A study of Mus musculus with 36 samples.

Results

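The binding of RNA to Ago2 was compared between colonic tumours with oncogenic K-Ras-G12D and with wild-type K-Ras within the first of 2 batches, in 3 mRNA libraries of each genotype. These are 6 of the 12 mRNA libraries and of the 36 samples of the series, chosen because batch 1 holds neither of the 2 shallow WT libraries. All 6 tumours came from C57BL/6 mice of the genotype Halo-Ago2/+; Villin-CreER/+; Apc(fl/fl), and the G12D tumours carried K-Ras-G12D/+ in addition, so both groups lack Apc wherever the Villin promoter, active in gut epithelium, drives Cre. At 8 to 12 weeks of age the mice were given an enema of 200 µl 4-hydroxytamoxifen at 5 mg/ml. For each number there is an mRNA, a miRNA and an input library. The labels number the samples 1 to 3 in each genotype without naming the mice. The p-values therefore reflect only how these samples vary. Libraries of a genotype with the same number are taken here as 1 tumour, which the labels do not state. Tissue was resected or scraped from the colon of moribund animals, so other cells of the gut wall could be present.

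The method, Halo-enhanced Ago2 pulldown, crosslinks RNA to a Halo-tagged Ago2 with UV light and recovers it on a resin, and stretches of RNA where reads pile up are called as peaks. The values cover 7730 merged peaks, of which 5653 had a mean of at least 10 rescaled counts and were tested. Their target genes numbered 3914, and 3208 with a mean sum of at least 10 were tested. A rescaled count is the deposited normalised count divided by a factor that makes the peaks' median level equal in the 6 libraries. The input libraries were not analysed here, so more RNA and more Ago2 on the same RNA cannot be told apart, and neither can fewer cells of a type and less RNA per cell.

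Ago2 carries a mature miRNA and pairs it with target RNA mainly through the seed, bases 2 to 8 of the miRNA, and most such sites act in 3' UTRs, where they lower mRNA stability and translation. Loss of Apc stabilises beta-catenin and switches on Wnt target genes, among them several secreted or intracellular inhibitors that limit the pathway. K-Ras is a small GTPase upstream of the MAPK cascade, and the G12D change keeps it in its active, GTP-bound form. Colonic crypts hold absorptive and goblet cell lineages, whose genes are used below as further groups.

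The mature miRNAs whose seed sites recur among the peaks described below are shown with the seed in capitals, from RefSeq on build GRCm38.p6. They stand for the families with the largest shifts between genotypes and for those whose sites lie in named peaks. For the miR-135 family the sequence is that of miR-135a-5p, which shares its seed with the more abundant miR-135b-5p.
miR-24-3p: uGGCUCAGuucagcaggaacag
miR-135a-5p: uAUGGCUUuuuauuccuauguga
miR-31-5p: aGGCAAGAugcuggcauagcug
let-7i-5p: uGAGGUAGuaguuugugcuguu
miR-20a-5p: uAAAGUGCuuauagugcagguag
miR-200c-3p: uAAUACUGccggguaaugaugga

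Reads in peaks came to 361588, 163111 and 250437 for the WT replicates 1 to 3 and 810605, 506261 and 125384 for those of G12D, and 1 read was worth between 0.358 and 2.34 rescaled counts. The factors that equalised the peaks were 0.871 ± 0.188 among the WT and 1.18 ± 0.18 among the G12D libraries (SD, n = 3 each; two-sided exact permutation p = 0.2, where 0.1 is the smallest possible). WT replicate 1 and G12D replicate 3 stood apart from the other 4 libraries. They correlated with each other at r = 0.79 over log2 values of the tested peaks, while G12D replicate 3 correlated with the other 4 at 0.48 to 0.56, WT replicate 1 with them at 0.60 to 0.70, and these 4 with each other at 0.78 to 0.93. WT replicate 1 correlated at 0.60 to 0.78 and G12D replicate 3 at 0.70 to 0.77 with the 4 deep libraries of batch 2, where the other 4 reached 0.30 to 0.60. What this comes from was not tested. The first principal component held 59.9% of the variance between libraries and separated this pair from the rest. Values are therefore given also from a fit with that component as a covariate and from one without the pair, both chosen after seeing the data.

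Sex-linked RNA differed between the genotypes in these libraries, and the labels give no sex. Summed over peaks, on a scale common to all 12 mRNA libraries, Xist, the RNA of the inactive X chromosome, came to 288, 389.5 and 120.2 normalised counts in WT and 0, 0 and 97.0 in G12D. Uty, a gene of the Y chromosome, came to 5.15, 4.12 and 209 in WT and 169.5, 181 and 47.4 in G12D. WT replicates 1 and 2 were thus high in Xist and near 0 in Uty, G12D replicates 1 and 2 were the reverse, and the third tumour of each genotype held both. Sex-linked RNA thus ran with genotype in 2 of the 3 tumours of each, so for any peak or gene in this batch sex and genotype cannot be fully told apart. In the deep libraries of batch 2 the order was the reverse. There Xist came to 21.7 in WT replicate 4 and 293, 310 and 514 in G12D replicates 4 to 6. Uty came to 40.4 in WT replicate 4 and 5.71, 0 and 2.08 in G12D replicates 4 to 6.

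**Figure D1:**
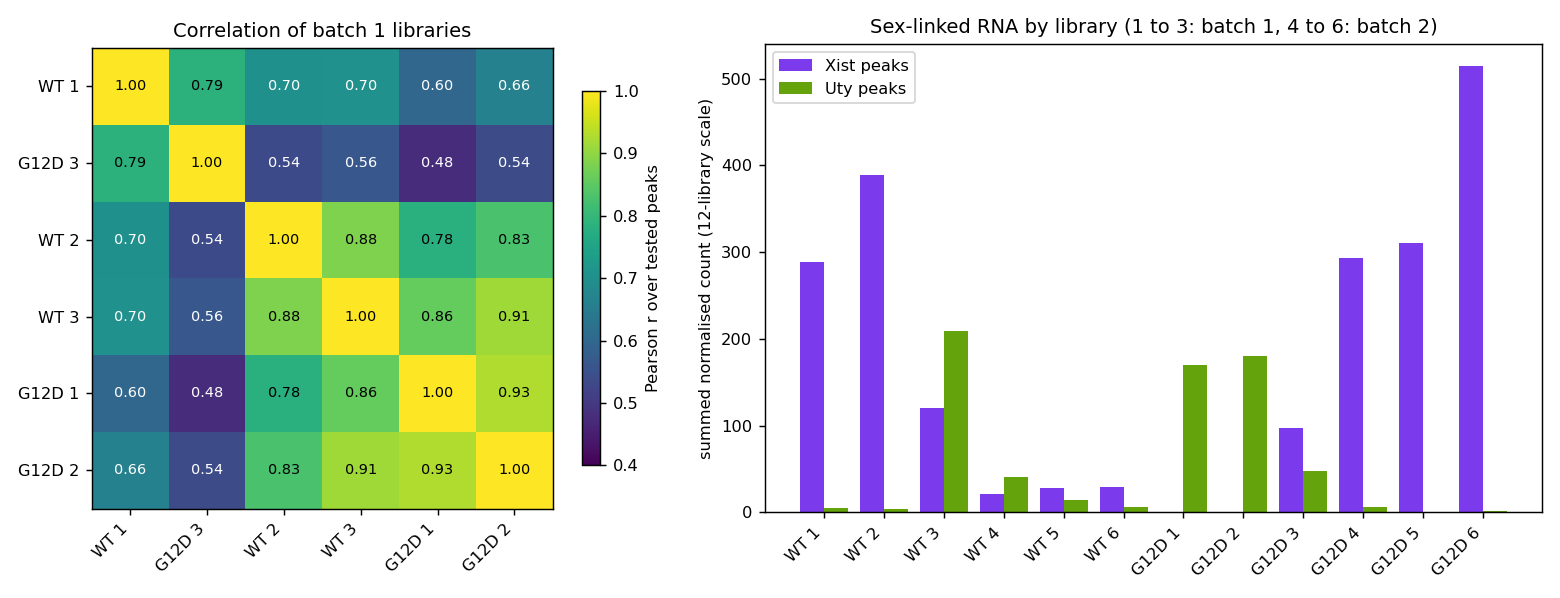
Left, Pearson correlation of log2(rescaled count + 5) between the 6 libraries of batch 1 over the tested peaks, with WT 1 and G12D 3 placed first; the other 4 libraries correlate at 0.78 to 0.93. Right, bars of the summed normalised counts of Xist and Uty peaks in each of the 12 mRNA libraries on 1 common scale; Xist is 0 in G12D 1 and 2 and 389.5 in WT 2.

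In the limma test at an adjusted p under 0.05, 0 of 5653 peaks were higher and 0 were lower in G12D (0% each), and for genes the counts were 0 and 0 of 3208 (0% each). At an unadjusted p under 0.05, limma gave 103 peaks on the higher and 128 on the lower side (1.82% and 2.26%), and 91 and 58 genes (2.84% and 1.81%). On the deposited scale, without rescaling, the median peak stood at 0.36 and the unadjusted counts were 376 and 18 peaks. edgeR called 0 peaks and 0 genes in either direction, with 111 and 124 peaks at an unadjusted p under 0.05, and DESeq2 called 0 peaks higher and 2 lower. All 3 G12D libraries lay above all 3 WT libraries for 310 peaks and below them for 295 (5.48% and 5.22%), and for genes the counts were 230 and 126 (7.17% and 3.93%). With the first principal component as a covariate, limma called 13 peaks higher and 24 lower (0.23% and 0.425%) and 15 genes higher and 16 lower (0.468% and 0.499%). That component was computed from the same values that were tested. Without WT replicate 1 and G12D replicate 3, limma called 6 peaks higher and 6 lower of 5221 (0.115% each), and 1 gene higher and 2 lower of 3051 (0.0328% and 0.0656%). Of the 37 peaks called with the component, 7 were among these 12, and 8 were among the 8 called when batch 2 was added without its shallow libraries. These fits share libraries of batch 1, so the overlap of their calls is not independent support. Leaving out G12D replicate 3 alone gave 0 peaks higher and 2 lower, both in Xist. Every gene described below therefore missed the threshold in the 3 against 3 comparison, with adjusted p-values from limma of at least 0.778 for the named gene sums. The named peaks and genes are taken from the 12 on each side with the smallest unadjusted p among those with a mean of at least 50 rescaled counts. Of the 23 named peaks, 11 passed the limma test with the component and 1, in Xist, passed without the pair. Of the 23 named gene sums, 16 passed with the component and 2, Xist and Nkd1, without the pair.

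Among abundant peaks, those with the smallest p on the higher side in G12D included sites on Zfp36l2, Myc, Pthlh and Fasn. The exonic peak of Zfp36l2 (mm10 chr17:84187114-84187162), which encodes a protein that binds AU-rich elements and promotes mRNA decay, held 331, 340.3 and 358 in WT and 909, 727 and 784 in G12D. The lowest G12D value was well above the highest WT value, and the WT libraries were nearly equal. The log2 fold change was 1.22 (SE 0.34) and the means were 343 ± 13.7 in WT and 807 ± 93.4 in G12D (SD over 3 libraries each). This peak lists no seed site of 7 or 8 bases. In the fit with the first principal component the gene sum passed the limma test (adjusted p = 0.0278) and the peak did not (0.0592), and without the pair neither passed (0.101 and 0.0891).

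The 3' UTR peak of Myc (chr15:61990008-61990078), a transcription factor and Wnt target, held 748, 662 and 1074 in WT and 1562, 1324 and 1822 in G12D, also without overlap. Its log2 fold change was 0.94 (SE 0.35), and its seed site matches miR-135. It did not pass in the fit with the component (limma adjusted p = 0.144). The level of the miR-135 family in the miRNA libraries of the same tumours was 1056, 1133 and 1184 in WT and 3773, 2728 and 2406 in G12D normalised counts, again without overlap.

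Peaks with let-7 sites stood on Pthlh, Trpm4 and Col4a2. Pthlh (chr6:147257221-147257277), which encodes the secreted parathyroid hormone-related protein, held 70.0, 27.6 and 58.5 in WT and 116, 165 and 215.2 in G12D, for a log2 fold change of 1.62 (SE 0.46). Trpm4 (chr7:45310289-45310355), a calcium-activated cation channel, held 28.8, 33.1 and 74.3 in WT and 256, 124 and 105 in G12D, for a log2 fold change of 1.73 (SE 0.50). Neither peak overlapped between genotypes, and both passed the limma test with the component (adjusted p = 0.0188 and 0.0133) but not without the pair (0.0778 and 0.0789). The 3' UTR peak of the basement membrane collagen Col4a2 (chr8:11448512-11448570) has sites for let-7 and miR-29 and held 31.0, 62.5 and 42.6 in WT and 241, 124 and 58.5 in G12D. G12D replicate 3 lay below WT replicate 2 there, and the peak passed with the component (0.0416) but not without the 2 libraries (limma adjusted p = 0.0778). The let-7 family itself was at 18188, 18031 and 15419.8 in WT and 16164, 16643 and 19815 in G12D in the miRNA libraries, where the genotypes overlapped.

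Of the 11 named peaks on the higher side, 4 hold a miR-24 site, as do 306 of all 5653 tested peaks. The share among peaks with a mean of at least 50, from which the named ones come, was not computed. The 5' UTR peak of the histone gene Hist1h2bk (chr13:22035875-22035933) held 34.7, 18.4 and 36.5 in WT and 129.5, 85.1 and 56.1 in G12D and passed the limma test with the component (log2 fold change 1.42 (SE 0.44) in 3 against 3, adjusted p with the component = 0.0474) but not without the pair (0.0622). Histone genes have near-identical copies, so its reads may be shared with them. Slc40a1 (chr1:45911467-45911532), the iron exporter ferroportin, held 95.9, 58.9 and 56.0 in WT and 153, 138 and 171 in G12D in an exonic peak with a log2 fold change of 1.11 (SE 0.39). Sipa1l3 (chr7:29401049-29401108), a regulator of Rap GTPases, held 30.2, 33.1 and 51.1 in WT and 143, 88.6 and 63.2 in G12D in its 5' UTR with a log2 fold change of 1.21 (SE 0.42). The 3' UTR peak of Fasn (chr11:120807549-120807601), the fatty acid synthase, held 39.1, 42.3 and 65.8 in WT and 140.96, 108 and 86.6 in G12D, for a log2 fold change of 1.12 (SE 0.39). None of these 4 peaks overlapped between the genotypes, and the last 3 missed the threshold with the component (limma adjusted p = 0.0885, 0.0592 and 0.0861), although the gene sum of Sipa1l3 passed with it (0.0383) and not without the pair (0.111).

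The remaining named peaks on this side were on Myo10 and Mfsd4. Myo10 (chr15:25735964-25736017), an unconventional myosin of filopodia, and Mfsd4 (chr1:132038752-132038805), a membrane transporter of the major facilitator family, have miR-17 family sites. The Myo10 peak held 44.2, 31.3 and 46.3 in WT and 102, 72.4 and 95.9 in G12D, for a log2 fold change of 1.06 (SE 0.37). The Mfsd4 peak held 312, 254 and 348 in WT and 466, 611 and 854 in G12D, for a log2 fold change of 1.03 (SE 0.39). Both peaks were free of overlap.

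On the lower side stood the Wnt inhibitor Wif1, secreted proteins such as Mgp, Dmbt1 and Lyz1, and noncoding RNAs. The 3' UTR peak of Mgp (chr6:136872461-136872537), matrix Gla protein, an inhibitor of tissue calcification, holds an 8-base site of the miR-200b/miR-200c/miR-429 family and had 185, 241 and 135 in WT and 63.3, 61.4 and 30.4 in G12D. The groups did not overlap, the log2 fold change was -1.78 (SE 0.44), and the peak passed the limma test with the component (adjusted p = 0.00852) but not without WT replicate 1 and G12D replicate 3 (0.0789). Wif1 (chr10:121090136-121090194), a secreted protein that binds and blocks Wnt ligands, held 203, 91.98 and 58.5 in WT and 36.5, 12.7 and 11.7 in G12D in an exonic peak, for a log2 fold change of -2.23 (SE 0.55). WT replicate 1 carried the highest Wif1 value, and without the pair of unlike libraries the log2 fold change was -1.53 (limma adjusted p = 0.0891). It passed with the component (limma adjusted p = 0.00905) and when the 4 deep libraries of batch 2 were added (0.0245). Its value in G12D replicate 3 rests on 5 reads.

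Dmbt1 (chr7:131121379-131121439), a mucosal scavenger protein, held 171, 162 and 121 in WT and 24.7, 69.5 and 60.8 in G12D in its 3' UTR. Lyz1 (chr10:117288521-117288591), the lysozyme of Paneth cells, held 98.8, 119.6 and 53.6 in WT and 48.7, 23.2 and 18.7 in G12D. Both were without overlap, with log2 fold changes of -1.55 (SE 0.46) and -1.47 (SE 0.46). Dmbt1 passed with the component and Lyz1 did not (limma adjusted p = 0.0272 and 0.0572), and without the pair neither passed (0.0891 and 0.168). Tbx3 (chr5:119683135-119683190), a T-box transcription factor, has a miR-17 family site and held 84.1, 95.7 and 57.2 in WT and 38.6, 35.9 and 9.36 in G12D. The groups did not overlap, the log2 fold change was -1.48 (SE 0.50), and it passed with the component (limma adjusted p = 0.0474). Without the pair the log2 fold change was -0.91 and it did not pass (limma adjusted p = 0.179). In G12D replicate 3 the Tbx3 peak rests on 4 reads.

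The 3' UTR peak of Ccni (chr5:93182575-93182632), a cyclin, holds a pair of miR-31 sites and had 221.9, 633 and 342 in WT and 185, 120.4 and 23.4 in G12D. The genotypes did not overlap, but WT values spread widely and the value in G12D replicate 3 rests on 10 reads. The log2 fold change was -2.07 (SE 0.72), with a limma adjusted p of 0.00437 with the component and 0.0789 without the 2 libraries. miR-31 stood at 5397, 5973 and 2425 in WT and 5934, 3509 and 1689.7 in G12D in the miRNA libraries of these tumours.

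Malat1 and Xist, on the lower side, are long noncoding RNAs of the nucleus. All 45 tested peaks of Malat1 had a log2 fold change below 0, from -1.58 to -0.32 with a median of -1.01. In 17 of them the 3 G12D libraries lay below the 3 WT libraries, against 5.22% of all tested peaks, and these peaks share 1 transcript, so they are not separate observations. The 5 Malat1 peaks named by the rule had mean values between 70.6 and 309 in WT and between 29.9 and 132 in G12D. The highest of the 5 (chr19:5798224-5798277) held 410.0, 311 and 207 in WT and 126, 143 and 126 in G12D, for a log2 fold change of -1.15 (SE 0.40). With the component, limma called 3 Malat1 peaks lower, and without the pair none of these passed (adjusted p of 0.0874 to 0.0891). The Xist peak (chrX:103482396-103482448) held 156, 182 and 63.3 in WT and 0, 0 and 74.9 in G12D, and its log2 fold change of -3.34 (SE 0.99) rests on the 2 libraries without Xist. In the fit of all 12 mRNA libraries with batch, its log2 fold change turned to 0.60, and with the 10 libraries that leave out the shallow ones it was -1.05.

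**Figure D2:**
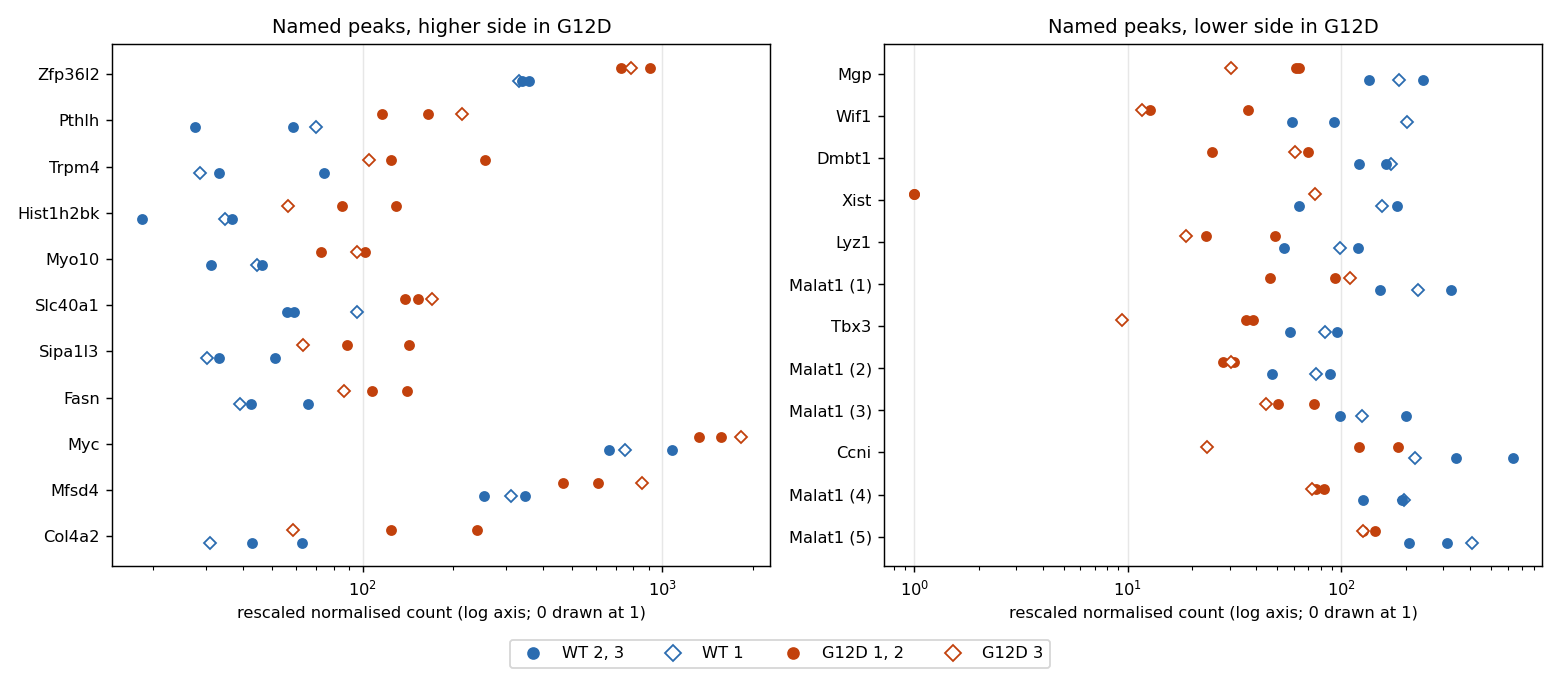
Rescaled count (log axis, with 0 drawn at 1) of the named peaks, 11 on the higher and 12 on the lower side, in every library of batch 1; blue is WT and orange G12D, and open diamonds are the 2 libraries that stand apart. In 10 of 11 peaks on the higher side and 11 of 12 on the lower side the 3 G12D values lie on 1 side of the 3 WT values, and Col4a2 and Xist are the exceptions; 5 of the 12 are peaks of Malat1.

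Summing the peaks of a gene brought up genes whose binding is spread over several sites. On the higher side Msn, the membrane to actin linker moesin, was at 26.5, 22.1 and 40.2 in WT and 89.1, 76.4 and 58.5 in G12D. Col5a2, a fibrillar collagen, was at 17.7, 46.0 and 30.4 in WT and 119, 78.1 and 51.5 in G12D. Nek6, a mitotic kinase, was at 42.0, 29.4 and 42.6 in WT and 72.6, 70.0 and 72.5 in G12D. None of these groups overlapped, and the log2 fold changes were 1.22 (SE 0.32), 1.27 (SE 0.42) and 0.85 (SE 0.28). With the component the sums of Msn and Col5a2 passed the limma test (adjusted p = 0.0383 and 0.0383) and Nek6 did not (0.143). Without the pair none of the 3 sums passed (0.111, 0.125 and 0.167). A peak of Msn taken alone passed in limma both with the component (adjusted p = 0.00852) and without the pair (0.0354).

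On the lower side, Nkd1, an intracellular inhibitor of Wnt signalling, summed to 119, 71.7 and 63.3 in WT and 16.1, 15.0 and 58.5 in G12D. Its G12D values lay below every WT value, the log2 fold change was -1.53 (SE 0.49), and it passed the limma test both with the component (adjusted p = 0.0103) and without the 2 unlike libraries (0.0471). Plet1, a surface protein of progenitor cells, was at 140.1, 105 and 88.9 in WT and 42.9, 53.8 and 39.8 in G12D and passed with the component (limma adjusted p = 0.0383) but not without the pair (0.143). The light chain of MHC class I, B2m, was at 175, 177 and 159.5 in WT and 71.9, 117 and 32.7 in G12D and also passed with it (0.0463). Its log2 fold change was -1.31 (SE 0.43), and without the pair it was -0.83 (limma adjusted p = 0.196). H19, an imprinted noncoding RNA that is the source of miR-675, was at 846, 250.2 and 162 in WT and 32.9, 96.1 and 145 in G12D, where WT replicate 1 was far above the rest. Its log2 fold change was -1.99 (SE 0.68) and its limma adjusted p was 0.017 with the component and 0.116 without the pair. Park7, of oxidative stress defence, was at 80.4, 93.8 and 87.7 in WT and 40.8, 41.1 and 53.8 in G12D. Fundc1, a mitophagy receptor, was at 72.3, 90.1 and 125 in WT and 28.6, 63.1 and 35.1 in G12D. Neither overlapped, and both missed the threshold with the component (limma adjusted p = 0.105 and 0.103).

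The fit with the component also called genes outside that rule, chosen here after their values were seen. Clu, the secreted chaperone clusterin, a marker of regenerating epithelium, held 8.11, 3.68 and 0 in WT and 77.3, 26.6 and 21.1 in G12D and passed both with the component (limma adjusted p = 0.0278) and without the 2 libraries (0.0471). Abcb1a, a drug efflux pump, held 8.11, 1.84 and 8.52 in WT and 24.7, 23.7 and 32.7 in G12D. Adam19, a membrane metalloprotease, held 8.85, 3.68 and 9.74 in WT and 36.1, 26.6 and 44.4 in G12D. Both were free of overlap and passed the limma test with the component (adjusted p = 0.0383 and 0.017) but not without the pair (0.116 and 0.0996). On the lower side, the metallothionein gene Mt3 held 70.8, 49.7 and 21.9 in WT and 12.2, 9.84 and 0 in G12D. Mt4, a neighbour of the same family, held 13.3, 35.0 and 13.4 in WT and 2.504, 1.74 and 2.34 in G12D. Both were without overlap and passed in limma with the component (adjusted p = 0.0383 and 0.0383) but not without the pair (0.153 and 0.0996). Gprin2 and Bcr, whose peaks hold miR-31 sites, passed with it too (0.0153 and 0.0383). Without the pair the limma adjusted p was 0.0996 and 0.143 for these gene sums, and the Gprin2 peak alone was just under the threshold (0.0496). Gprin2 was at 24.3, 86.5 and 25.6 in WT and 8.59, 3.47 and 0 in G12D. Bcr, a GTPase regulator, was at 59.7, 40.5 and 19.5 in WT and 11.1, 6.37 and 4.68 in G12D. Further genes called in that fit were Gtf2e2, Myof and the peak shared by Ltv1 and Zc2hc1b on the higher side, and Reg4, Spock2 and Plpp1 on the lower.

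Groups of genes were described by counts and medians, beside 7.17% and 3.93% of all genes without overlap on the higher and lower side and a median log2 fold change of 0.059 over all 3208 genes. Where the annotation gives 2 gene names to a peak, that pair of names is an entry of its own, so a gene can have 2 entries. For Wnt target genes, 20 of 32 listed genes were tested as 21 entries, 2 lay wholly above and 7 wholly below WT, and the median log2 fold change was -0.48, with Tcf7l2 counted also as Ppnr Tcf7l2. The 7 on the lower side were Wif1, Nkd1, Tnfrsf19, Notum, Jun, Vegfa and Tcf7l2, of which Wif1, Nkd1 and the Wnt deacylase Notum inhibit the pathway. Notum was at 30.2, 42.3 and 29.2 in WT and 15.7, 6.37 and 18.7 in G12D, without overlap. Dkk2, a secreted antagonist of the Wnt co-receptors, was at 87.0, 49.7 and 24.4 in WT and 30.1, 7.52 and 0 in G12D with a slight overlap. Axin2, the scaffold of the destruction complex, and Rnf43, a ligase that removes Wnt receptors, overlapped widely, with log2 fold changes of -0.35 and -0.018. The 2 members wholly on the higher side were Myc and Ephb2, a receptor kinase of crypt cells, at 23.6, 25.8 and 46.3 in WT and 122, 65.4 and 49.1 in G12D. Ccnd1, the G1 cyclin, was at 707, 898 and 1002 in WT and 1845, 1268 and 898 in G12D, and G12D replicate 3 lay among the WT values. In limma 0 members passed in the 3 against 3 test, and Wif1 and Nkd1 passed with the component. Relative to all genes, the list's median lay between -0.54 and -0.51 under the 5 scalings and between -0.63 and -0.42 with libraries left out.

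The MAPK output list split by member. There 21 of 32 listed genes were tested, 1 lay wholly above and 4 wholly below WT, and the median log2 fold change was -0.063. Wholly below WT were 2 immediate early transcription factors. Egr1 was at 106.9, 105 and 63.3 in WT and 50.4, 48.6 and 35.1 in G12D and Jun, a partner of Fos, was at 532, 513 and 403 in WT and 337, 347 and 302 in G12D. The MAPK phosphatase Dusp1 was at 122, 153 and 121 in WT and 98.4, 85.1 and 58.5 in G12D, and the EGF receptor ligand Hbegf was at 143, 118 and 81.6 in WT and 72.6, 73.5 and 65.5 in G12D, again wholly below. Wholly above was Dusp6, the ERK phosphatase, at 24.3, 29.4 and 23.1 in WT and 33.6, 47.5 and 35.1 in G12D. Fos was at 161, 160.0 and 138 in WT and 375, 276 and 86.6 in G12D, high in G12D replicates 1 and 2 and lowest in replicate 3. With libraries left out, this list's median relative to all genes ranged from -0.42 to 0.083, so its sign depended on which libraries were left out. Among EGF ligands and ErbB receptors, 9 of 16 listed genes were tested, 0 lay wholly above and 1 wholly below WT, and the median log2 fold change was 0.090. Its most abundant member, the ligand Ereg, was at 258, 545 and 737 in WT and 965, 928 and 503 in G12D and overlapped.

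In the Ras and ERK core, 13 of 28 listed genes were tested, 1 lay wholly above and 0 wholly below WT, and the median log2 fold change was 0.28, with 10 members above 0. Nras, a Ras paralogue, was the member free of overlap, at 79.6, 86.5 and 90.1 in WT and 115, 102 and 117 in G12D. The adaptor Gab1 was at 8.11, 18.4 and 24.4 in WT and 44.4, 39.4 and 16.4 in G12D, and G12D replicate 3 lay among the WT values. The list's median without the 2 unlike libraries was 0.27. By library, as log2 relative to each gene's mean, it was -0.26, -0.16 and 0.027 in WT and 0.42, 0.22 and -0.36 in G12D. G12D replicate 3 thus lay below every WT library, and the list overlapped. Among let-7 targets, 22 of 30 listed genes were tested, 4 lay wholly above and 0 wholly below WT, and the median log2 fold change was 0.13. These 4 were Myc, Nras, Hmga2 and Cdc34. Members are listed by gene name, and the 3' UTR peak of Myc described above lists no let-7 site of 7 or 8 bases. The chromatin protein Hmga2 was at 71.5, 77.3 and 59.7 in WT and 125, 117 and 98.2 in G12D, and the ubiquitin-conjugating enzyme Cdc34 was at 412, 202 and 234 in WT and 561, 414 and 494 in G12D.

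Genes of the goblet and secretory lineage had the lowest median of the 18 lists. In it, 13 of 26 listed genes were tested, 0 lay wholly above and 3 wholly below WT, and the median log2 fold change was -0.65. All 13 fold changes were below 0. The 3 without overlap were Reg4, Lyz1 and Spdef. Reg4, a secreted lectin, was at 71.5, 66.2 and 52.4 in WT and 21.5, 19.7 and 11.7 in G12D, and Spdef, the transcription factor of goblet cell maturation, was at 22.1, 11.0 and 14.6 in WT and 5.37, 4.63 and 4.68 in G12D. Reg4 passed the limma test with the component (adjusted p = 0.0153) but not without the pair (0.0996). The main gel-forming mucin Muc2 summed to 3530.5, 7533 and 8718 in WT and 5128, 5175 and 2262 in G12D over 10 peaks, lowest in the 2 unlike libraries, with overlapping groups. Fcgbp, a mucus protein, was at 263, 353 and 332 in WT and 169, 293 and 42.1 in G12D, where G12D replicate 2 lay within the WT range. With the component, limma called 1 peak of each lower (adjusted p = 0.0189 for Muc2 and 0.0272 for Fcgbp), and without the pair neither passed (0.0891 and 0.194). Without WT replicate 1 and G12D replicate 3 the list's median was -0.47.

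For absorptive colonocyte genes, 23 of 26 listed genes were tested, 0 lay wholly above and 1 wholly below WT, and the median log2 fold change was -0.16. The sodium-proton exchanger Slc9a3 lay below WT, at 143, 153 and 190.0 in WT and 109.8, 118 and 30.4 in G12D. The most abundant member, the antibacterial surface protein Lypd8, was at 2119, 1783 and 1716 in WT and 797, 1872 and 2220.0 in G12D, with overlap. A peak of the sulphate transporter Slc26a2, chosen after its value was seen, passed the limma test with the component (adjusted p = 0.0474, log2 fold change -1.31 in that fit) but not without the pair (0.0891). Among intestinal identity transcription factors, 12 of 20 listed genes were tested, 1 lay wholly above and 0 wholly below WT, and the median log2 fold change was -0.0031. Cdx2, the caudal homeobox factor of the gut, was its member above WT, at 6.64, 11.0 and 11.0 in WT and 35.4, 14.5 and 37.4 in G12D. Klf3, its most abundant, was at 350.2, 416 and 404 in WT and 382, 358 and 262 in G12D. These Cdx2 values are close to the abundance filter.

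For cell cycle genes, 13 of 27 listed genes were tested, 0 lay wholly above and 1 wholly below WT, and the median log2 fold change was 0.14. The member on the lower side was the CDK inhibitor Cdkn1a, at 98.1, 91.98 and 57.2 in WT and 56.5, 44.0 and 30.4 in G12D. For MHC class I and interferon genes, 10 of 18 listed genes were tested, 0 lay wholly above and 1 wholly below WT, and the median log2 fold change was -0.053. That member was B2m, while the heavy chain gene H2-K1 was at 496, 478 and 455 in WT and 575, 544 and 290.1 in G12D and overlapped. Class I heavy chain genes are similar in sequence, so their reads may be shared.

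For cholesterol and fatty acid synthesis, 15 of 20 listed genes were tested, 2 lay wholly above and 0 wholly below WT, and the median log2 fold change was 0.0074. Among these was the fatty acid synthase Fasn, which summed to 181, 162 and 157 in WT and 269, 227 and 259.7 in G12D. For glycolysis and hypoxia, 15 of 22 listed genes were tested as 16 entries, 1 lay wholly above and 3 wholly below WT, and the median log2 fold change was -0.14, with Pkm counted also as Pkm Gramd2. Hexokinase Hk2, one of the lower members, was at 106.9, 158 and 113 in WT and 62.6, 85.1 and 101 in G12D. The others were the hypoxia factor Hif1a and Vegfa, and the member wholly above was hexokinase Hk1, at 23.6, 29.4 and 39.0 in WT and 44.0, 44.0 and 46.8 in G12D. The lactate transporter Slc16a1, the most abundant, was at 198, 88.3 and 162 in WT and 93.4, 200.3 and 320.5 in G12D, with overlap.

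For the miRNA machinery, 19 of 27 listed genes were tested, 0 lay wholly above and 1 wholly below WT, and the median log2 fold change was 0.082. The member below WT was the helicase Ddx6, at 339, 349.5 and 358 in WT and 335, 309.7 and 259.7 in G12D. The scaffold Tnrc6b, the most abundant, was at 760.2, 428.6 and 641 in WT and 329.9, 465 and 959 in G12D. The deadenylase Cnot6, with the smallest p, was at 37.6, 38.6 and 56.0 in WT and 105.9, 75.2 and 49.1 in G12D, and both genes overlapped. For TGF-beta signalling and epithelial to mesenchymal transition, 8 of 27 listed genes were tested, 0 lay wholly above and 0 wholly below WT, and the median log2 fold change was 0.061. Its most abundant member, the cell adhesion gene Cdh1, was at 362.8, 428.6 and 279 in WT and 179.6, 238 and 290.1 in G12D.

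The labelled tissue was checked against markers of epithelium and of other cells. Of 27 colon epithelium markers 22 had a peak, among them Epcam, Cdh1 and Vil1, and their summed level was 11716 to 15844 in WT and 8223 to 12008 in G12D. Their median log2 fold change was -0.34. Of 26 fibroblast and smooth muscle markers 9 were tested, namely Sparc and collagens, in 10 entries because Col1a2 has a further one shared with RP23-56M2.7, with summed levels of 267 to 568 in WT and 503 to 1187 in G12D. The fold changes of all 10 entries were above 0, with a median of 0.64 and 0.61 without the 2 unlike libraries. Col5a2 and Col6a3 were free of overlap, Col5a2 and Col4a2 passed the limma test with the component (adjusted p = 0.0383 and 0.0383) but not without the pair (0.125 and 0.111), and Col1a1, the most abundant, was at 53.1, 109 and 95.0 in WT and 253, 97.2 and 149.7 in G12D. The defining markers Pdgfra, Pdgfrb, Dcn, Acta2, Myh11 and Des had no peak. Of 25 leukocyte markers 3 had a peak, summing to 430.5 to 796 in WT and 629 to 1395 in G12D, and Igha, an antibody heavy chain of plasma cells, made up most of it with 449.8, 224 and 629.6 in WT and 630.4, 1191 and 383.6 in G12D. Ptprc, Cd3e, Cd68 and Csf1r had no peak. Of 17 endothelial and nerve markers only the receptor Ret had a peak, at 34.7, 31.3 and 15.8 in WT and 25.8, 18.5 and 60.8 in G12D. The summed marker levels overlapped between the genotypes in each of these lists, and the part of other cells in the results was not tested.

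**Figure D3:**
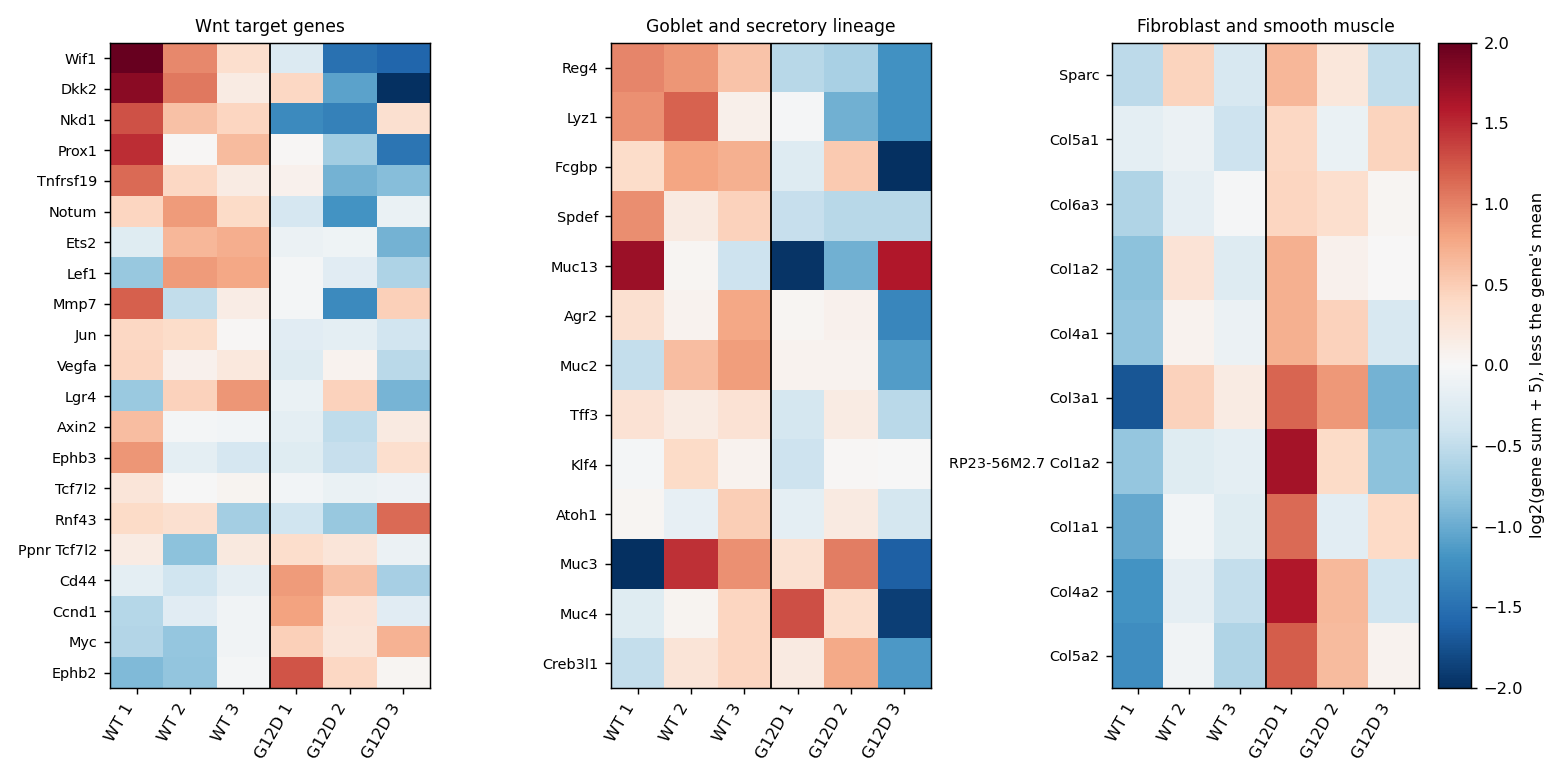
Heat maps of log2(gene sum + 5) less the gene's mean over the 6 libraries, for every tested gene of 3 lists, with genes ordered by their difference between genotypes and a line between WT and G12D. Wif1, Nkd1, Notum, Reg4 and Lyz1 are lower in all 3 G12D libraries, and Col5a2 and Col6a3 are higher in all 3.

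**Figure D4:**
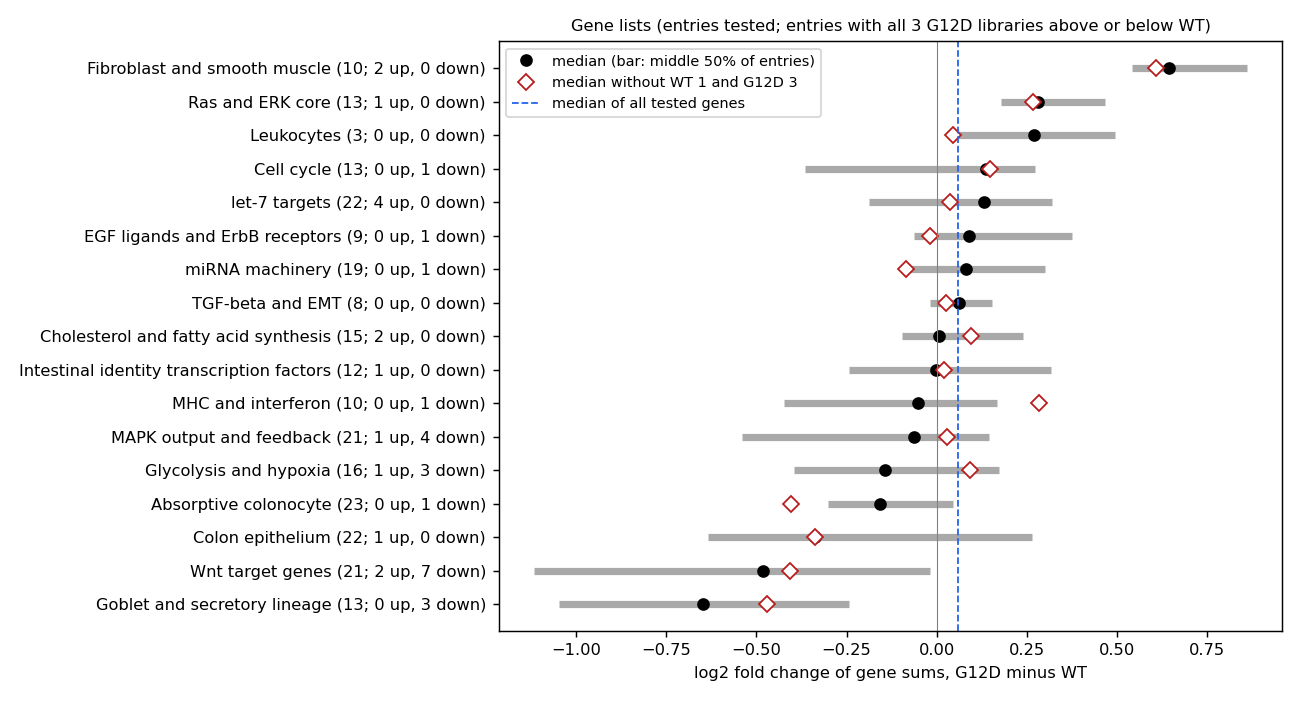
Median log2 fold change of gene sums (black points) with the middle 50% of entries (bars) for each list with at least 3 tested, and the median without WT 1 and G12D 3 (open diamonds); labels give the entries tested and those without overlap. The secretory list lies lowest at -0.65 and the fibroblast list highest at 0.64, and the dashed line marks all genes at 0.059.

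Peaks were then grouped by the miRNA seed sites of 7 or 8 bases that the authors' annotation lists. Of 39 families, 29 had at least 50 tested peaks, and their medians were set beside a median of about 0 over all peaks, to which the libraries had been scaled. The miR-24 family had the largest median, 0.24, over 306 peaks, of which 50 lay wholly above and 7 wholly below WT (16.3% and 2.29%, against 5.48% and 5.22% of all peaks). It was followed by miR-19 at 0.15 and miR-18 at 0.13. The lowest medians belonged to miR-31 at -0.29, with 2 of 66 peaks above and 8 below, to miR-192/miR-215 at -0.17 and to miR-181 at -0.10. The sign of these 6 medians held under all 5 scalings relative to all peaks. Leaving out libraries gave 0.17 to 0.30 for miR-24, -0.43 to -0.012 for miR-31 and -0.058 to 0.25 for miR-18.

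By library, the median of the miR-181 peaks, as log2 relative to each peak's mean, was 0.090, 0.081 and 0.039 in WT and 0.034, -0.086 and 0.013 in G12D. For miR-192/miR-215 it was 0.087, 0.092 and 0.105 in WT and -0.114, 0.082 and -0.117 in G12D. Both lay wholly below WT by a small margin, and those of miR-19 and miR-18 overlapped. The most abundant peaks of the miR-19, miR-18 and miR-181 families overlapped between the genotypes. That of miR-192/miR-215 lay wholly above WT although its family's median was below 0. The miR-19 peak in Ereg (chr5:91093341-91093397), an EGF receptor ligand, held 254, 526 and 719.7 in WT and 919, 868 and 494 in G12D. The miR-18 peak in Gigyf1 (chr5:137525853-137525912), which encodes a regulator of translation, held 111, 189 and 196 in WT and 226, 239 and 133 in G12D. The miR-192/miR-215 peak in Dazap2 (chr15:100616907-100616953) held 156, 173 and 267 in WT and 295, 269 and 491 in G12D, and the miR-181 peak in Malat1 (chr19:5796191-5796248) held 831, 532 and 286 in WT and 158, 163 and 447 in G12D. Their log2 fold changes were 0.67 (SE 0.48), 0.26 (SE 0.43), 0.80 (SE 0.42) and -1.13 (SE 0.56).

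In 3' UTRs, exons, 5' UTRs and introns the median of miR-24 peaks was above that of the other peaks. It was 0.14 for 151 peaks in 3' UTRs (other 3' UTR peaks -0.063), 0.31 for 104 in exons (others 0.041), 0.50 for 22 in 5' UTRs (others 0.066) and 0.21 for 19 in introns (others 0.043). The most abundant miR-24 peak, in the 3' UTR of the serine protease Prss8 (chr7:127925872-127925933), held 417, 396 and 434 in WT and 593, 481 and 1247 in G12D, without overlap but with most of the difference in G12D replicate 3. By library, the median of the family's peaks, as log2 relative to each peak's mean, was -0.29, -0.056 and -0.052 in WT and 0.35, 0.13 and -0.065 in G12D. G12D replicate 3 thus lay level with WT replicates 2 and 3, and the family as a whole overlapped. The level of the miR-24 family was 8039.9, 10091 and 7746 in WT and 8936, 8759 and 9329 in G12D normalised counts, also overlapping.

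For miR-31 the tumours were ordered much alike by the miRNA and by its peaks, which was noted after the values were seen and is given with no test. The miRNA stood at 5397, 5973 and 2425 in WT and 5934, 3509 and 1689.7 in G12D, and the median of its peaks by library was 0.13, 0.34 and -0.0033 in WT and 0.29, -0.044 and -0.74 in G12D. The 3 tumours with the most miR-31, WT replicate 2, G12D replicate 1 and WT replicate 1, had the 3 highest peak medians in the same order, and G12D replicate 3 had the least of both. The most abundant miR-31 peak, in the 3' UTR of the tight junction gene Cldn4 (chr5:134945653-134945712), held 1291, 1336 and 621 in WT and 774, 443 and 350.9 in G12D. Its groups overlapped, with a log2 fold change of -1.04 (SE 0.46). With the component, limma called 4 of the 66 peaks lower, in Ccni, Xist, Gprin2 and Bcr, where 0.425% of all peaks were called lower. The Xist peak among the 4 is sex-linked.

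The miR-135 family, with 45 tested peaks, fell outside the rule of 50 and was chosen after its values were seen. Its peaks had a median of 0.26, which relative to all peaks lay between 0.064 and 0.36 with libraries left out. Of these peaks, 9 lay wholly above and 0 wholly below WT (20% and 0%). Besides Myc they included the transcription coactivator gene Sub1, at 146, 305 and 317 in WT and 339, 398 and 374 in G12D, and the RNA-processing gene Lsm8, at 4.42, 7.36 and 2.44 in WT and 37.9, 11.0 and 39.8 in G12D. Lsm8 and the peak shared by Ltv1 and Zc2hc1b, at 6.64, 1.84 and 4.87 in WT and 54.7, 24.3 and 28.1 in G12D, passed the limma test with the component (adjusted p = 0.0274 and 0.00437), and without the pair only the shared peak passed (0.126 and 0.024). By library the family's median was -0.26, -0.13 and 0.043 in WT and 0.30, 0.13 and -0.043 in G12D. G12D replicate 3 thus lay below WT replicate 3 although its miR-135 was 2406 against 1184. The shift was not uniform over positions or kinds of site. In 3' UTRs the median of miR-135 peaks was 0.028 over 26 peaks (other 3' UTR peaks -0.054). In exons it was 0.26 over 15 peaks (others 0.051). Peaks with an 8-base site, 6 in number, had a median of -0.24. Those with a 7-base site had 0.25 over 26 peaks of 1 kind and 0.27 over 13 of the other. The miR-375 family, likewise with 45 tested peaks, had a median of -0.23, with 2 wholly above and 2 wholly below WT (4.44% each). Relative to all peaks that median lay between -0.35 and -0.22 with libraries left out. The level of miR-375 itself was not summed here.

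The miRNA level was summed for each of the 39 families but miR-375. Of these families, 7 were wholly above WT in miRNA level, namely miR-135, miR-23, miR-218, miR-33, miR-22, miR-18 and miR-155. Wholly below were 2, miR-146 and miR-148/miR-152. The share of all 596 miRNAs that lay wholly above or below WT was not computed, so these counts have no background beside them. miR-23 was at 5349.9, 6007 and 5019 in WT and 8071, 6395 and 6769 in G12D. miR-218 was at 151, 171 and 190.2 in WT and 321, 310.1 and 331 in G12D. miR-33, which lies in the Srebf2 gene of sterol synthesis, was at 439.6, 382 and 503 in WT and 715, 570.1 and 572 in G12D. Their peaks had medians of 0.057, 0.058 and 0.030. miR-155, a miRNA of immune and tumour cells, was at 83.5, 97.9 and 88.0 in WT and 324, 182 and 145 in G12D, and its 21 peaks had a median of -0.019. miR-146, a feedback miRNA of inflammatory signalling, was at 5475, 6124 and 5474 in WT and 3571, 4233 and 3508 in G12D. miR-148/miR-152 was at 826, 583 and 669 in WT and 536, 488 and 554 in G12D, and the peak medians of these last families were -0.060 and 0.064. The miRNA libraries were deposited with their own scaling, so these levels are not on the scale of the peaks.

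**Figure D5:**
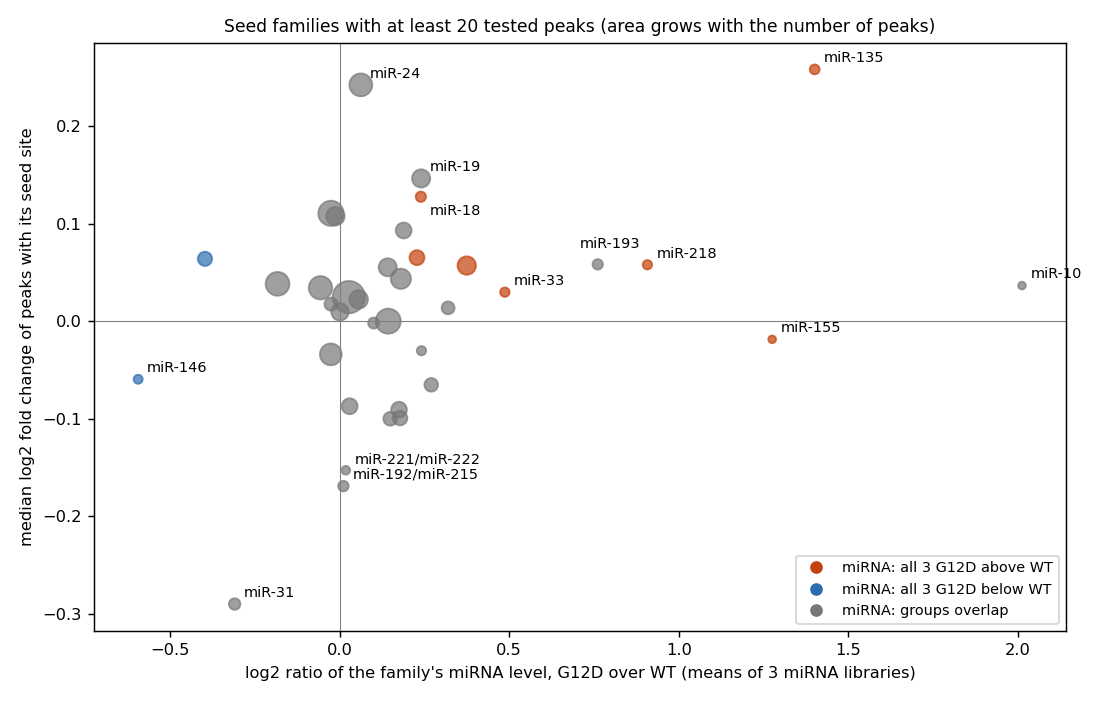
Each point is a seed family with at least 20 tested peaks and a summed miRNA level, which leaves out miR-375. The x axis gives the log2 ratio of that miRNA level, G12D over WT. The y axis gives the median log2 fold change of peaks with the family's site, with area growing with the number of peaks. Orange marks miRNA levels wholly above WT, blue wholly below and grey overlapping. miR-24 has the highest peak median of the large families (0.24) at a miRNA ratio of 0.063, miR-135, with 45 peaks, stands at 0.26 and 1.40, and miR-31 is lowest at -0.29.

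By position, the 2918 tested peaks in 3' UTRs had a median log2 fold change of -0.053, with 135 wholly above and 191 wholly below WT (4.63% and 6.55%). The 1799 in exons had a median of 0.052, with 138 above and 76 below (7.67% and 4.22%). The 140 in 5' UTRs had the highest median, 0.17, with 16 above and 3 below (11.4% and 2.14%), and introns stood at 0.051 over 542 peaks. Peaks with a seed site of 7 or 8 bases had a median of 0.019 and those without one -0.099. The authors called 1 peak list per genotype over both batches. Of the tested peaks, 3748 overlap the G12D list alone, 1846 both lists and 59 the WT list alone. The tested set thus consists mostly of peaks called in G12D alone. The WT list was made with the 2 shallow libraries among its own, and how depth shaped the lists was not tested. The peaks of the G12D list alone had a median of 0.0020, with 5.42% wholly above and 4.99% wholly below WT. They make up most of the tested peaks, whose median the scaling set to about 0, so this median says little. The 59 had a median of -0.55, with 16 wholly below WT and 0 above. Since the lists were made from libraries that include these 6, that direction was set by the choice.

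The 8 most abundant peaks overlapped between the genotypes, and the mucin peaks were lowest in the 2 unlike libraries. The largest, in an exon of Muc2 with an 8-base let-7 site (chr7:141691355-141691407), held 1934, 6350.2 and 7493 in WT and 4388, 4436 and 732 in G12D. A peak just before the 5' UTR of the membrane mucin Muc3 (chr5:137150516-137150581) held 333, 5546 and 3973 in WT and 2704, 4307 and 545 in G12D. The Actb peak (chr5:142904547-142904602) was steadier, at 1998, 1685 and 1494 in WT and 2245, 2040.3 and 1801 in G12D, and so was that of Cyfip1, an actin regulator, at 1386, 1332 and 1331 in WT and 1360.2, 1468 and 2484 in G12D. The Gphn peak, in an intron, held 3307, 4891 and 2645 in WT and 1777, 2007 and 4989.7 in G12D. The Gm26561 peak held 2542, 2605 and 1385 in WT and 1242, 1128 and 1588 in G12D. A peak with no gene in the annotation (chr13:44869955-44870023) held 1053, 3251 and 1106 in WT and 1353, 913 and 643 in G12D, and 1 annotated to the ribosomal RNA gene n-R5-8s1, whose copies share reads, held 1885, 8166 and 3036 in WT and 2934, 2150.3 and 3652 in G12D.

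Ago2, the bait, had 4 tested peaks, with log2 fold changes from -0.33 to 0.99. The highest of these was a 3' UTR peak with a miR-200b/miR-200c/miR-429 site (chr15:73102401-73102467), at 4.42, 3.68 and 18.3 in WT and 36.1, 16.8 and 11.7 in G12D. None of the 4 peaks was free of overlap.

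The second batch has 1 deep WT library, replicate 4, and 3 deep G12D libraries, so it gives values without a test. Of the 11 named peaks on the higher side, 7 had all 3 of these G12D values above WT replicate 4, where 23.6% of all tested peaks did, and Hist1h2bk, Myo10, Sipa1l3 and Col4a2 did not. Of the 12 on the lower side, 11 had all 3 below, where 33.1% of all peaks did, and Xist did not. Of these 12 peaks 5 lie on the 1 Malat1 transcript, so they are not 12 separate observations. On the scale of all 12 libraries Wif1 was at 617 in WT replicate 4 and 33.4, 25.1 and 28.8 in G12D replicates 4 to 6. Mgp was at 54.6 in WT replicate 4 and 11.0, 8.29 and 7.50 in G12D replicates 4 to 6. Pthlh, on the higher side, was at 221 in WT replicate 4 and 918, 399 and 433 in G12D replicates 4 to 6. The shallow WT replicates 5 and 6, with 30607 and 57037 reads in peaks, were at 156 and 4109 for Wif1, 0 and 35.3 for Mgp and 2119 and 1431 for Pthlh. Both of these Pthlh values lay above all 3 G12D values of the batch, opposite to WT replicate 4. Over all peaks without overlap in batch 1, 38.7% of the 310 on the higher side and 49.8% of the 295 on the lower side showed the same order in batch 2. With 1 WT library the order in batch 2 rests on that library. Between these deep libraries Xist and Uty ran opposite to replicates 1 and 2 of batch 1, and what sex adds to the order was not tested.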

How the data were processed

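The 6 mRNA libraries of batch 1 were analysed from a table of merged Ago2 peaks that the authors deposited, with 1 column of normalised counts per library. Per the file's values, this signal is a read count scaled by the authors with 1 factor for each library, and the deposited miRNA signal has the same form. Per the submitters' processing notes DESeq2 and the STAR aligner (2.5.2b) were used, with the builds GRCm38 and mm10. In each library 100% of values were whole multiples of 1 read at a tolerance of 0.001, so counts could be recovered. The authors' deposited peak lists carry a score per peak, which entered no test; their positions served to say which list a merged peak overlaps, and no peak caller is named in those notes. The columns were taken as mRNA libraries from their names.

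Values were divided by a median-of-ratios factor per library over the 6948 peaks above 0 in all 6. Peaks, and sums over each annotated gene, with a mean of at least 10 were compared on log2(value + 5) with limma 3.58.1 in R 4.3.3 (trended empirical Bayes, two-sided, Benjamini-Hochberg adjustment over all tested), so fold changes of low peaks are understated. edgeR 4.0.16 and DESeq2 1.42.0 served as alternatives on the recovered reads, beside other scalings, pseudocounts of 1 and 20, a mean of 50 or no filter, array weights, a replicate block, each library left out, and both batches. Peak lists were overlapped with GenomicRanges 1.54.1 at 1 base or more. The limma steps were tested on simulated data with known changes. Those data held no component shared between libraries, unlike these, so they cannot say how many changes the test misses here. Named peaks and genes are, in each direction at a mean of at least 50, 12 that pass the threshold or, as 0 did, those with the smallest unadjusted p, the 8 most abundant peaks, all peaks of Ago2, the leading peak of families with extreme medians, and the members of each list with the highest mean and the smallest p; some genes that this rule names are not reported here. The members and lists were chosen with earlier results of these data known. Precision is set by 3 libraries a group and by depth, from 125384 to 810605 reads in peaks. Input libraries were not analysed here.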

Additional observations from a re-analysis of the deposited data

How the results depend on the processing

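Counts at an adjusted p under 0.05 stayed at 0 in both directions under the other scalings, pseudocounts and filters and in edgeR. DESeq2 called 2 peaks lower, in Xist and at a site with no gene. limma with array quality weights, which gave G12D replicate 2 a weight of 5.93 and G12D replicate 3 one of 0.188, called 19 peaks higher and 26 lower, and 14 and 10 genes. The component as a covariate gave 13 and 24 peaks and 15 and 16 genes, and leaving out WT replicate 1 and G12D replicate 3 together gave 6 and 6 peaks and 1 and 2 genes. Of the peaks called with the component 21 were also called with the weights, in a fit of the same libraries. Adding batch 2 with a batch term gave 1 peak higher, in Msn, with all 12 libraries, and with 10 libraries 2 peaks higher and 6 lower, and 1 gene and 5 genes. Leaving out each library in turn gave 0 peaks higher and 0 to 2 lower, and 0 genes higher and 0 to 1 lower, all called ones in Xist.

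The replicate numbers did not pair the libraries (correlations of deviations of -0.53, 0.31 and -0.53 for numbers 1, 2 and 3). With the number as a block, limma called 0 and 0 peaks, with 43 and 66 at an unadjusted p under 0.05, and 0 and 0 genes.

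The deposited scaling moved the median log2 fold change to 0.36 for peaks and 0.44 for genes. Values near 0 changed sign there: n-R5-8s1 0.11, Gphn 0.027, Muc3 0.37, Tnrc6b 0.28, Lypd8 0.13, Klf3 0.21 and H2-K1 0.36. Array weights turned Muc3 to 0.21, H2-K1 to 0.19 and Ret to -0.21. All 12 libraries turned Xist to 0.60, Muc3 to 0.12, Park7 to 0.21, Klf3 to 0.15 and H2-K1 to 0.090. With 10 libraries 2 Ago2 peaks stood at -0.34 and -0.10 and Gigyf1 at -0.083. Taking each gene's highest peak alone gave Klf3 0.13 and H2-K1 0.23. The component gave Muc3 0.030, and leaving out the unlike pair gave an Ago2 peak -0.030, H2-K1 0.26 and Ret -0.031. Leaving out single libraries changed the sign of these values, with ranges of -0.32 to 0.31 and -0.11 to 0.75 for the Ago2 peaks, -0.00069 to 0.51 for Gigyf1, -0.60 to 0.17 for Tnrc6b, -0.81 to 0.25 for n-R5-8s1, -1.34 to 0.80 for Muc3, -0.21 to 0.53 for Ret, -0.62 to 0.13 for Lypd8, -0.25 to 0.22 for H2-K1 and -0.056 to 0.82 for Slc16a1. The cause of these sign changes was not tested. The difference in library factors was 0.31 and lay between 0.19 and 0.41 with libraries left out.

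Depth limits the low values: 1 read in G12D replicate 3 is worth 2.34 rescaled counts, so the peaks of Wif1, Tbx3 and Ccni there rest on 5, 4 and 10 reads.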
